A study of Rattus norvegicus with 36 samples.

Results

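Chemokines and their receptors were followed in rat soleus muscle after contusion of the spinal cord and after treadmill training. The genes were taken by symbol. They were the ligands named Ccl, Cxcl, Cx3cl or Xcl, the receptors named Ccr, Cxcr or Cx3cr with a digit, and the atypical receptors named Ackr. The rule found 45 genes among the 14217 with a probe set of a single symbol, represented by 58 probe sets, and for the 8 genes with several probe sets the one of highest mean log2 signal was used. There were 11 CXC ligands, 16 CC ligands, the CX3C ligand Cx3cl1 and the XC ligand Xcl1. The receptors were 5 CXC receptors, 6 CC receptors, Cx3cr1 and 4 atypical receptors.

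The animals were adult female Sprague Dawley rats of 16 weeks, and each of the 6 groups held 6 rats with 1 array of the left soleus per rat. The SCI3d, SCI8d and SCI14d groups were taken 3, 8 and 14 days after a moderate contusion at thoracic segment 8. The SCI8d + TM group had 3 treadmill sessions from day 7 on, the SCI14d + TM group trained for 5 days with 2 sessions per day from the same day, and their muscle was taken 8 h after the last session. Age-matched rats without contusion, at the time point labelled Pre, were the controls (CTR). The study's methods describe no sham operation. Injured rats also had anaesthesia, a laminectomy and the pain drugs buprinex and ketoprofen, and experimental animals had access to a dough diet. These cannot be told apart from the contusion in the comparisons with CTR. The contusion struck the cord and not the muscle, and the trainer held up part of the body weight of trained rats where needed.

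Chemokines are small secreted proteins that bind heparan sulfate on vessel walls and matrix and draw leukocytes along a gradient through receptors coupled to inhibitory G proteins. CXC ligands with an ELR motif, such as Cxcl1, Cxcl2, Cxcl3 and Cxcl6, attract neutrophils through Cxcr2, whereas CC ligands such as Ccl2 and Ccl7 attract monocytes through Ccr2. Atypical receptors bind chemokines without G protein signalling and remove them. In muscle, Cxcl12 and its receptors Cxcr4 and Ackr3 are known for roles in vessels, stromal cells and muscle precursors.

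Promoter sequence of 4 ligands is shown first, because the ELR ligands Cxcl1 and Cxcl2 had the widest range of signal between arrays of all members, and their signal is described further on, while Cxcl12 was lower in each untrained SCI group. Each line gives the 130 bases before the gene start, on the strand of the gene, from RefSeq on rat build GRCr8. Capitals mark matches to the NF-κB consensus, which were searched on both strands of the 250 bases before the start. Cxcl6 lies on chromosome 14 with Cxcl1 and Cxcl2 and carried the match, while its signal was near background.
Cxcl1: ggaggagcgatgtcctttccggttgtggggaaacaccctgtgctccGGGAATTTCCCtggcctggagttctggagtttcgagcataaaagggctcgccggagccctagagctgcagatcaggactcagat
Cxcl2: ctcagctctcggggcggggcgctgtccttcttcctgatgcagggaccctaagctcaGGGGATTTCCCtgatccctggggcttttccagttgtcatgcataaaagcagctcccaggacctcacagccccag
Cxcl6: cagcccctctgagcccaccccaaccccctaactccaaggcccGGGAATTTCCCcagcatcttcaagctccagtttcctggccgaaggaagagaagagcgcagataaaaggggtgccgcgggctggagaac
Cxcl12: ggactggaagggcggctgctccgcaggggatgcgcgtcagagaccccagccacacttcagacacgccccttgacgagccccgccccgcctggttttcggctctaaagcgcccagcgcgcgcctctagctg

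The Cxcl1 stretch is chr14:17479322-17479451 on the minus strand. The Cxcl2 stretch is chr14:17467256-17467385 on the minus strand. The Cxcl6 stretch is chr14:17596418-17596547 on the minus strand, and that of Cxcl12 is chr4:152060651-152060780 on the plus strand. In Cxcl1, Cxcl2 and Cxcl6 a match on each strand overlapped the other by all but a base, so 11 letters are in capitals. The Cxcl12 window held no match. Promoters of 35 of the 45 members were found, and 8 of the 35 held a match, against 3.52% of all 27457 promoters in the table. Those were Cxcl1, Cxcl2, Cxcl6, Cxcl10, Cxcl11, Ccl9, Ccl20 and Ccr3. A match is a run of letters and not a measured site.

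The values were linear MAS5 signals, in arbitrary units, scaled by the authors so that each array has the same trimmed mean. The median of an array lay between 166 and 187 in SCI3d and between 190 and 198 in CTR, and the highest was 234, in SCI8d + TM. The signal ratio of the 3′ to the 5′ GAPDH control probe set, a sign of RNA quality, was above 1.3 on 3 arrays, which were CTR replicate 3 (1.61), SCI14d replicate 4 (1.35) and SCI14d + TM replicate 1 (1.33), and at most 1.21 on the others. All 8 slow fibre markers were measured and none was called in the 5 comparisons of injury and training. Their summed signal ranged from 216260 in SCI14d replicate 4 to 591370 in SCI8d replicate 3 over single arrays. Of 5 erythrocyte and blood markers, 3 rose on days 3 and 8, among them Ahsp, which stabilises haemoglobin, by 2.52 (adjusted p = 0.00202) and 2.75 (adjusted p = 0.00388), and the median log2 change of the 5 was 1.72 and 1.58. Their summed signal ran from 40647 to 76600 in SCI3d and from 42056 to 84405 in SCI8d, against 35754 to 48169 in CTR, and their part in the values of the members was not tested. The labels name no batch. The replicates are separate rats.

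A member was taken to be near background where its mean log2 signal lay below the 40th percentile of all probe sets, a signal of 106. That held for 20 of the 45 members. For comparison, of 23 measured genes of photoreceptors, germ cells, islets and pituitary, which muscle is not known to use, 20 lay below the same limit, with a median level of 22.4. Members above the 75th percentile, a signal of 820, were Cxcl12, Cxcl14, Ccl2, Ccl6, Ccl21 and Ackr3. Near background were 3 of 11 CXC ligands, 8 of 16 CC ligands, 3 of 5 CXC receptors, 4 of 6 CC receptors, Xcl1 and Cx3cr1, and 0 of the 4 atypical receptors. Signals of different probe sets do not rank transcripts by abundance, since probes differ in affinity.

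**Figure D1:**
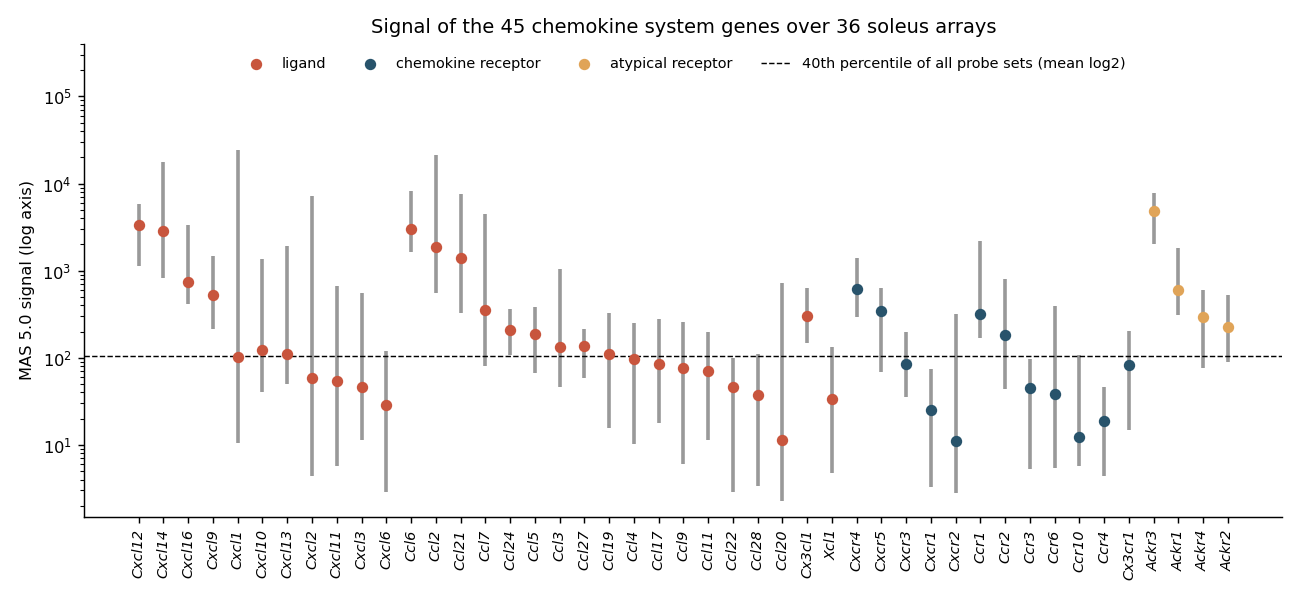
Lowest, median and highest MAS5 signal (log axis, arbitrary units) of each of the 45 members over the 36 arrays, grouped by family, with points for the median and the near-background limit of 106 as a dashed line. Cxcl1 ran from 10.6 to 24485 and Cxcl2 from 4.42 to 7216, wider than Cxcl12, which ran from 1142 to 5810.

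After contusion, few members changed. On day 3 Cxcl12, Cxcl14 and the scavenging receptor Ackr3 fell and Cxcl16 rose. On day 8 Cxcl12 fell and Cxcr5 rose, and on day 14 Cxcl12 fell and Cxcr5 and Ackr4 rose. These were 4 of 45 members on day 3, where 16.5% of all probe sets were called, 2 of 45 on day 8, where 6.29% were, and 3 of 45 on day 14, where 3.19% were. Called means an adjusted p under 0.05 in limma over all 31042 probe sets. All of the called members were among the 25 above the background limit, where 24.9%, 9.45% and 4.8% of all probe sets were called on days 3, 8 and 14.

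The mean log2 signal was higher than in CTR for 16 of 45 members on day 3, for 17 on day 8 and for 36 on day 14. On the log2 scale the median change of the members was -0.11, -0.25 and 0.55 on the 3 days, beside -0.04, 0.04 and 0.08 over all probe sets. The 3 comparisons share the same 6 CTR arrays. At an unadjusted p under 0.05 there were 6, 6 and 10 of 45 members, beside 8561, 6397 and 5488 of all 31042 probe sets. The muscle was measured in bulk, so fewer cells of a type and less RNA per cell cannot be told apart in any of these values.

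**Figure D2:**
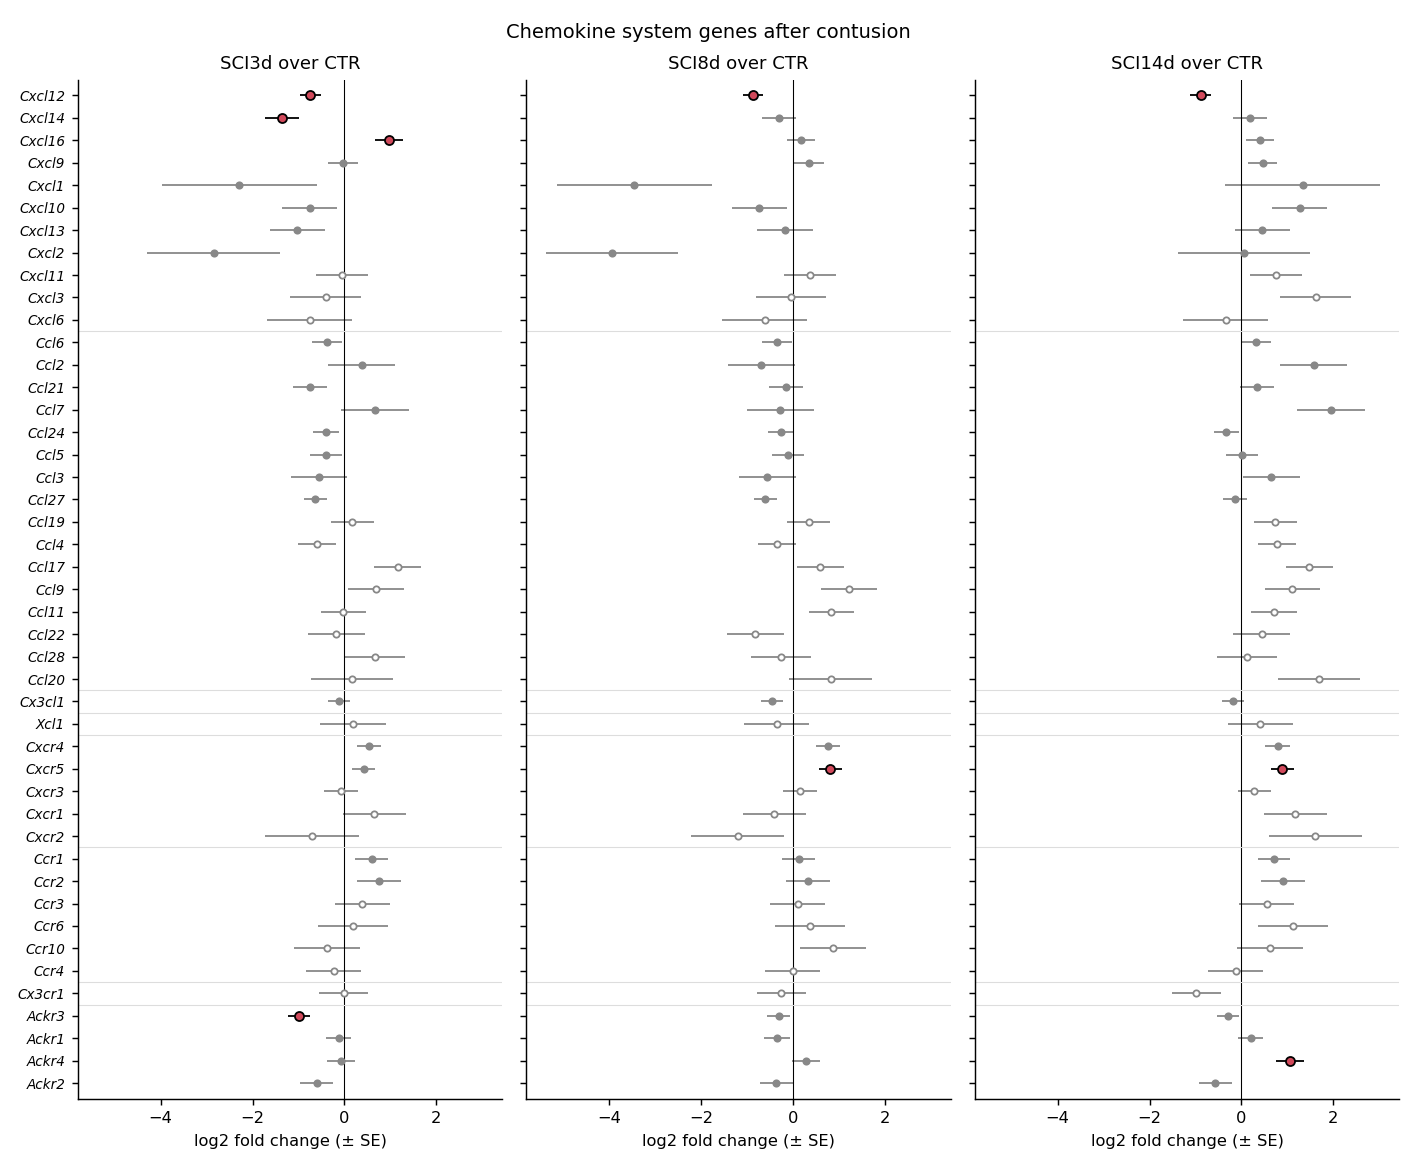
Log2 fold change over CTR (points, with SE as bars) of the 45 members in SCI3d, SCI8d and SCI14d, from the limma fit of 36 arrays, grouped by family. Red points passed an adjusted p of 0.05, open points are near background, and on day 14 most points lie right of 0 with few of them red.

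Cxcl12, the stromal chemokine that holds precursor cells and lymphocytes in place, was the member called on all 3 days. Its signal in SCI3d had a lowest value of 2129, a median of 3101 and a highest of 4012, against 4145, 5242 and 5810 in CTR. In SCI8d the lowest, median and highest were 2345, 2617 and 3991, and in SCI14d they were 1978, 2814 and 3922, against the same controls. No array of the 3 untrained SCI groups reached the lowest CTR array. Cxcl12 thus changed by -0.74 (SE 0.22, adjusted p = 0.0186), -0.87 (adjusted p = 0.016) and -0.89 (adjusted p = 0.0239) on the log2 scale at days 3, 8 and 14. Without SCI3d replicate 2 or 3 the day-3 value was -0.68 (adjusted p = 0.0516) or -0.64 (adjusted p = 0.0534). Without SCI14d replicate 3, 5 or 6 or CTR replicate 1 or 6 the day-14 value lay between -0.88 and -0.79. Its adjusted p was then between 0.0525 and 0.0679. Over all alternatives described below, other probe sets among them, 15 kept the day-14 call. In 9 the call was lost with the sign unchanged, and in 1 the sign turned. The exact two-sided permutation test gave 0.00216 for Cxcl12 on each day, the smallest p that 6 arrays against 6 allow.

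The other 2 probe sets of Cxcl12 fell on day 3 too, but not on days 8 and 14. The second Cxcl12 probe set had a lowest, median and highest signal of 1217, 1395 and 1716 in SCI3d, against 2182, 2649 and 3538 in CTR, a change of -0.92 (SE 0.22, adjusted p = 0.0037). For the third these were 349, 446 and 519 in SCI3d and 574, 815 and 1028 in CTR, a change of -0.82 (SE 0.26, adjusted p = 0.0257). Neither SCI3d group overlapped its controls. Their Cxcl12 changes were -0.17 and -0.09 in SCI8d and 0.07 and -0.10 in SCI14d, with adjusted p between 0.72 and 0.917. The lower Cxcl12 signal on day 3 was therefore seen by 3 probe sets, and that on days 8 and 14 by the brightest alone. Which transcript forms the probe sets detect is not given in the sources used here.

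Fibroblasts are a known source of Cxcl12. Of 11 measured fibroblast markers, 1 fell and 0 rose on day 3, and 3 rose and 0 fell on days 8 and 14, among them Col3a1, a fibrillar collagen, with 1.21 (adjusted p = 0.00434) and 1.13 (adjusted p = 0.013) on the log2 scale. Their summed signal ran from 72586 to 149630 in SCI3d, from 104000 to 285320 in SCI8d and from 151810 to 262500 in SCI14d, against 71472 to 235110 in CTR. Of 9 endothelial markers, Emcn fell on day 3 and Cldn5 on day 8, and all 9 means were below CTR on both days. Their summed signal ran from 11024 to 13335 in SCI3d and from 9700 to 13776 in SCI8d, against 13746 to 16115 in CTR. On day 14 none of the 9 was called, and the sum ran from 10623 to 20689 in SCI14d, overlapping CTR. Of 7 smooth muscle and pericyte markers, Rgs5, a G protein regulator of pericytes, fell on days 3 and 8 by 1.38 (adjusted p = 2.91e-05) and 0.71 (adjusted p = 0.046) on the log2 scale, and had -0.74 (adjusted p = 0.0569) in SCI14d. The summed signal of the 7 ran from 6248 to 9360 in SCI3d, from 6350 to 9157 in SCI8d and from 6186 to 9802 in SCI14d, against 7747 to 11801 in CTR. Their part in the Cxcl12 values was not tested.

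Ackr3, the atypical receptor that scavenges Cxcl12, fell on day 3. The lowest, median and highest signals were 2002, 2760 and 5452 in SCI3d, against 4792, 6103 and 7475 in CTR. SCI3d replicate 5, at 5452, overlapped the controls, and the other 5 arrays lay below all of them. The log2 fold change of Ackr3 was -0.99 (SE 0.24, adjusted p = 0.004, exact permutation p = 0.00649). On days 8 and 14 Ackr3 differed from CTR by -0.31 and -0.29 on the log2 scale (adjusted p = 0.512 and 0.585).

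Cxcr4, the signalling receptor of Cxcl12, was above the CTR median on all 6 arrays in each untrained SCI group but was not called. Its signal ran from 478 to 845 in SCI3d, from 522 to 965 in SCI8d and from 526 to 1384 in SCI14d, against 293 to 833 in CTR. The groups overlapped on every day. The fitted log2 changes at days 3, 8 and 14 were 0.53 (adjusted p = 0.188), 0.77 (adjusted p = 0.0766) and 0.79 (adjusted p = 0.0899). The other 2 Cxcr4 probe sets gave 0.60 and 0.70 in SCI3d, 0.79 and 0.76 in SCI8d, and 0.80 and 0.84 in SCI14d. Without CTR replicate 3, the control with the highest Cxcr4 signal and GAPDH ratio, Cxcr4 was called on days 8 and 14. Cxcr4 lies outside the rule for named genes and was chosen after its values were seen.

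Cxcl14, a chemokine of epithelia, fat and muscle, fell on day 3. Its signal had a lowest value of 824, a median of 1289 and a highest of 1958 in SCI3d, against 2785, 3177 and 4293 in CTR. The 6 SCI3d arrays lay below all CTR arrays. The log2 fold change was -1.36 (SE 0.37, adjusted p = 0.00925, exact permutation p = 0.00216), the largest in size among the called members on that day. A second, dimmer Cxcl14 probe set had group medians of 119 in SCI3d and 131 in CTR and gave 0.14, and the mean of both gave -0.61 (adjusted p = 0.317). Cxcl14 was higher in SCI14d than in SCI3d, with a log2 difference of 1.54 (SE 0.37, adjusted p = 0.00517, exact permutation p = 0.00649), and its signal in SCI14d ran from 1458 to 17532, the highest being replicate 4.

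Adipocyte markers moved on the same day as Cxcl14 and Ackr3. Of 6 measured, 4 fell and 0 rose on day 3, with a median log2 fold change of -1.83, and the fat hormone Adipoq had -2.80 (SE 0.65, adjusted p = 0.00222). Their summed signal had a lowest, median and highest value of 7342, 12231 and 18934 in SCI3d, against 15313, 21737 and 44275 in CTR. On day 8 the fatty acid carrier Fabp4 alone was called, at -1.07 (adjusted p = 0.00196), while Cxcl14 was not. The part of fat tissue in the Cxcl14 and Ackr3 values was not tested.

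Cxcl16, a membrane-bound chemokine and scavenger of oxidised lipids, rose on day 3. The lowest, median and highest signals were 638, 1307 and 3349 in SCI3d, against 485, 664 and 852 in CTR. SCI3d replicates 1, 2 and 6 were high at 3349, 1900 and 1708, and replicates 3, 4 and 5 lay between 638 and 907, near the controls. The log2 fold change was 0.98 (SE 0.30, adjusted p = 0.0209, exact permutation p = 0.0281). Without SCI3d replicate 1 it was 0.70 (adjusted p = 0.0907), without SCI3d replicate 2 it was 0.86 (adjusted p = 0.0648) and without CTR replicate 6 it was 0.89 (adjusted p = 0.0522). With only the 2 groups fitted the adjusted p was 0.0641, and the methods' t-test gave an adjusted p of 0.155. Its receptor Cxcr6 was not among the members.

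Of 15 measured macrophage markers on day 3, the scavenger receptor Cd163 rose by 1.09 (adjusted p = 0.0133) on the log2 scale and Adgre1, a surface protein of mature rodent macrophages, fell (adjusted p = 0.017), with 82.0 to 202 in SCI3d against 185 to 511 in CTR. Their summed signal ran from 35545 to 93529 in SCI3d, against 27845 to 52873 in CTR, with 1 of the 15 near background. The highest, SCI3d replicate 2, was also the array with the highest Ccr1, Ccr2 and Ccl6 signals of its group and the second highest Cxcl16. SCI3d replicate 1, which had the highest Cxcl16 signal at 3349, had a macrophage sum of 37054, within the CTR range. The part of macrophages in the Cxcl16 value was not tested.

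Cxcr5, the receptor that guides B cells and follicular helper T cells to Cxcl13, rose on days 8 and 14. Its lowest, median and highest signals were 321, 355 and 464 in SCI8d and 333, 400 and 476 in SCI14d, against 67.8, 266 and 372 in CTR. CTR replicates 1 and 4, at 148 and 67.8, lay lowest, while the highest CTR arrays overlapped both groups. The Cxcr5 log2 fold change was 0.81 (SE 0.25, adjusted p = 0.0467) on day 8 and 0.89 (SE 0.25, adjusted p = 0.0423) on day 14. Without CTR replicate 4 the values were 0.48 (adjusted p = 0.143) and 0.56 (adjusted p = 0.111). The day-8 call was also lost without CTR replicate 1 or 5 or any SCI8d array but replicate 1, and the day-14 call without CTR replicate 1 or 5 or any SCI14d array but replicate 2.

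The second Cxcr5 probe set had medians of 77.1 in SCI8d, 49.5 in SCI14d and 65.2 in CTR, all below the background limit, and gave -0.01 and -0.44. B cell markers were at low levels. Of 3 measured B cell markers 2 were near background and 0 were called, and their summed signal ran from 217 to 403 in SCI8d and 279 to 431 in SCI14d, against 186 to 306 in CTR. Of 14 T and NK cell markers, 10 were near background and 1 was called, Cd3g, which fell on day 3. The ligand Cxcl13 was not called on any day. Quantile normalization and median centring ended both Cxcr5 calls.

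Ackr4, the atypical receptor that removes Ccl19 and Ccl21, rose on day 14. Its signal had a lowest value of 323, a median of 369 and a highest of 464 in SCI14d, against 107, 181 and 386 in CTR. CTR replicate 3, at 386, overlapped SCI14d, and the other 5 controls lay below all 6 SCI14d arrays. The log2 fold change was 1.07 (SE 0.30, adjusted p = 0.0443, exact permutation p = 0.00866). The SCI14d arrays did not overlap those of SCI3d, where Ackr4 ran from 75.6 to 264, with a log2 difference of 1.14 (SE 0.30, adjusted p = 0.0109). Median centring, which lowers all SCI14d values by 0.13 against CTR, gave 0.94 (adjusted p = 0.0751). The call was also lost when any array of the 2 groups but CTR replicate 3 was left out, with log2 values between 0.91 and 1.13 and an adjusted p between 0.0505 and 0.13.

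Of the ligands of Ackr4, Ccl21, a lymphatic and lymphoid chemokine, was bright and Ccl19 was near background. Ccl21 had lowest, median and highest signals of 1353, 1661 and 7599 in SCI14d, against 1008, 1659 and 2823 in CTR. The medians were close and SCI14d replicate 4 stood above all other arrays. Ccl21 was not called in any comparison with CTR but was higher in SCI14d than in SCI3d by 1.09 (SE 0.38, adjusted p = 0.0498, exact permutation p = 0.0584). Of 4 lymphatic endothelial markers, Prox1 fell on all 3 days and no other was called. The means of 3, 2 and 3 of the 4 were higher than in CTR on days 3, 8 and 14. Their summed signal was 14069 in SCI14d replicate 4 and between 4510 and 8669 on the other SCI14d arrays, against 4971 to 7192 in CTR. Their part in the Ccl21 and Ackr4 values was not tested. Ccr7, the signalling receptor of both, was not among the members.

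**Figure D3:**
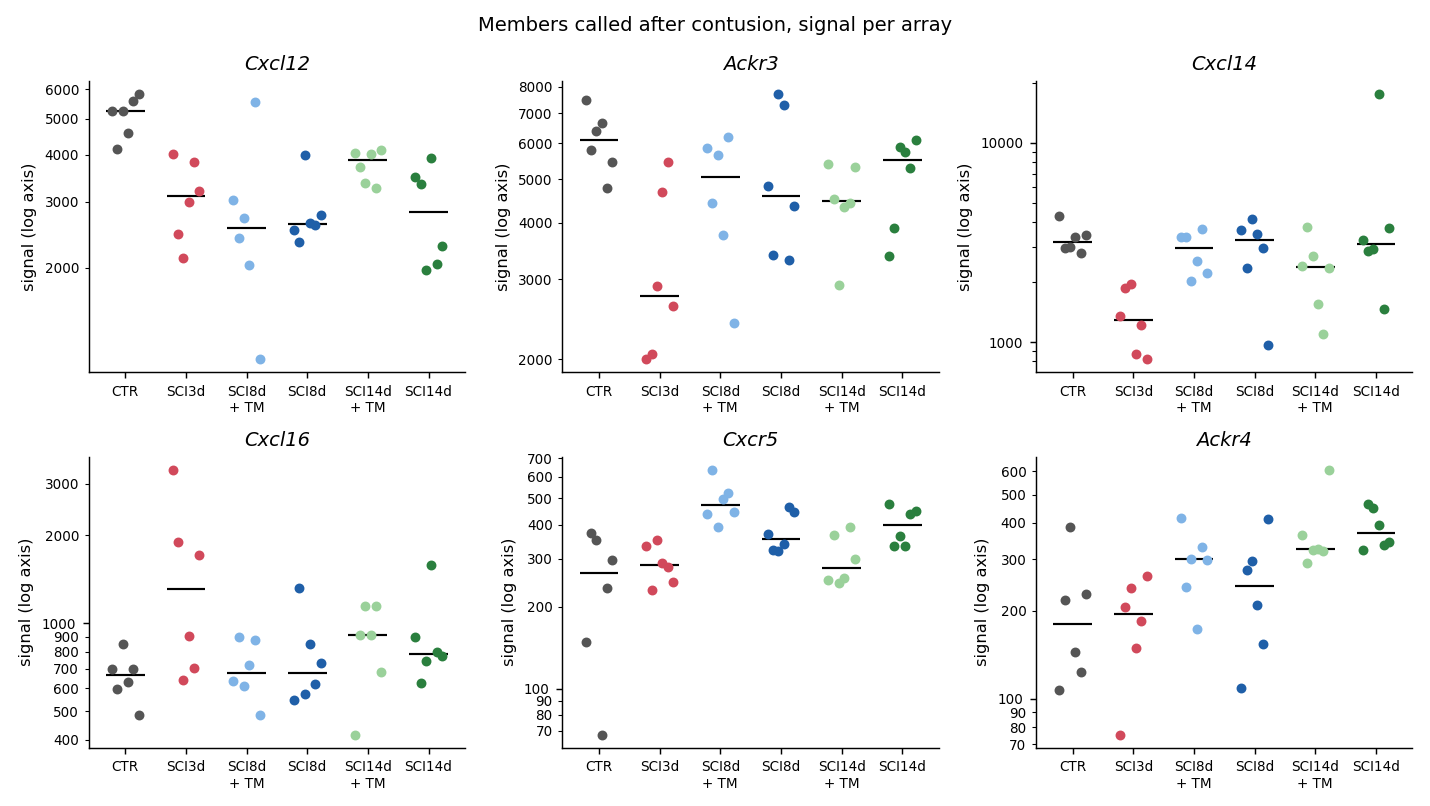
Signal per array (points, log axes, arbitrary units, in replicate order within a group) and group median (bars) of the 6 members called on at least 1 day. The CTR arrays of Cxcl12 lie above all arrays of SCI3d, SCI8d and SCI14d, while the 3 high SCI3d arrays of Cxcl16 stand apart from the other 3.

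Cxcl1 and Cxcl2, the neutrophil attractants of the promoter set above, were not called on any day, and their signals fell into 2 separate ranges. They lie outside the rule for named genes and were chosen after their values were seen. In SCI14d, Cxcl1 was 23576, 17922 and 24485 in replicates 3, 5 and 6, and 68.9, 67.1 and 295 in replicates 1, 2 and 4. In CTR it was 9776, 8362 and 12814 in replicates 2, 3 and 4, and 10.6, 61.6 and 80.9 in replicates 1, 5 and 6. The bright range was thus present in controls and on day 14 alike.

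In SCI14d + TM, Cxcl1 was 7535 and 7690 in replicates 3 and 5 and at most 297 on the other 4 arrays. In SCI3d its highest signal was 423, in SCI8d + TM 443 and in SCI8d 113. Of 36 arrays, 8 were above 1000 and none lay between 443 and 7535. The same 8 arrays were those above 1000 for Cxcl2, with 2544 to 7216, against at most 125 on the other 28.

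With groups divided in this way, the fold changes carried large errors. On the log2 scale Cxcl1 gave -2.29 (SE 1.69, adjusted p = 0.416), -3.46 (adjusted p = 0.238) and 1.33 (adjusted p = 0.746) at days 3, 8 and 14. Cxcl2 gave -2.85 (SE 1.44, adjusted p = 0.196), -3.94 (adjusted p = 0.0959, exact permutation p = 0.0346) and 0.06 (adjusted p = 0.989). The Cxcl2 value on day 14 ranged from -0.75 to 1.12 as single arrays were left out, and was negative without SCI14d replicate 3, 5 or 6 or CTR replicate 1, 5 or 6.

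Cxcr2, the receptor of both and a gene of neutrophils, was near background on most arrays. It reached 272, 319 and 175 in SCI14d replicates 3, 5 and 6 and 219 and 83.6 in SCI14d + TM replicates 3 and 5, against 162 and 133 in CTR replicates 3 and 4. The highest signal on the other 29 arrays was 41.4. CTR replicate 2, bright in Cxcl1 and Cxcl2, had a Cxcr2 signal of 4.44. Cxcl3, a further ligand of Cxcr2, was 556, 303 and 307 in SCI14d replicates 3, 5 and 6 and 166 and 128 in SCI14d + TM replicates 3 and 5, against 13.4, 48.9 and 187 in CTR replicates 2, 3 and 4, and was 93.7 in CTR replicate 5, which was dim in Cxcl1. Over all 36 arrays the highest signal of Cxcl6 was 120, in SCI14d replicate 3. Cxcr2 and Cxcl3 too were chosen after their values were seen.

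Neutrophil markers were high on largely the same arrays. The summed signal of the 7 measured ones was 36751, 30310 and 38936 in SCI14d replicates 3, 5 and 6 and 35222 and 12097 in SCI14d + TM replicates 3 and 5, against 27177 and 33221 in CTR replicates 3 and 4. It was 1585 in CTR replicate 2 and at most 14939 on any other array, that one being SCI14d + TM replicate 4. S100a8, a calcium-binding protein of neutrophils, was 9054, 7233 and 11442 in the 3 SCI14d arrays, against 5859 and 7408 in CTR replicates 3 and 4. On days 3 and 8 the summed signal ranged from 633 to 8060. Of the 7 markers 3 were near background, and 0 were called in any of the 5 main comparisons. The part of neutrophils in the Cxcl1, Cxcl2 and Cxcr2 values was not tested.

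The 16 measured inflammatory inducers and NF-κB genes were highest in sum on the arrays bright in Cxcl1, except CTR replicate 2. Their summed signal was 48605, 34915 and 44351 in SCI14d replicates 3, 5 and 6 and 21602 and 20881 in SCI14d + TM replicates 3 and 5, against 16817, 20438 and 23950 in CTR replicates 2, 3 and 4. On dim arrays it reached 18498 in SCI3d replicate 1 and 16997 in SCI14d replicate 4. Il1b, a cytokine that induces chemokines, was 10858, 8300 and 3180 in SCI14d replicates 3, 5 and 6, against 2272 and 3169 in CTR replicates 3 and 4 and 233 in CTR replicate 2. Il6, another such cytokine, was 8559, 3160 and 10954 in those SCI14d arrays and 790 in the dim SCI14d replicate 4. It was 493, 594 and 1000 in CTR replicates 2, 3 and 4. In SCI14d + TM replicates 3 and 5, Il1b was 2074 and 2643 and Il6 was 1870 and 1478. On the other arrays of that group they reached at most 362 and 118. Nfkbia, the inhibitor of NF-κB that NF-κB itself induces, ran from 1272 to 2211 in SCI8d, against 2016 to 8178 in CTR, overlapping in 1 control. It fell by 1.41 (SE 0.37, adjusted p = 0.0181) on the log2 scale. In CTR it was 7144, 6770 and 8178 in replicates 2, 3 and 4, bright in Cxcl1, and 3610, 2016 and 3410 in replicates 1, 5 and 6. The part of the bright controls in the Nfkbia fall was not tested. Of the 16 measured genes of this list, Nfkb2 rose on day 3 and Nfkbia fell on day 8, and no other was called. S100a8, Il1b and Il6 were chosen after their values were seen.

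**Figure D4:**
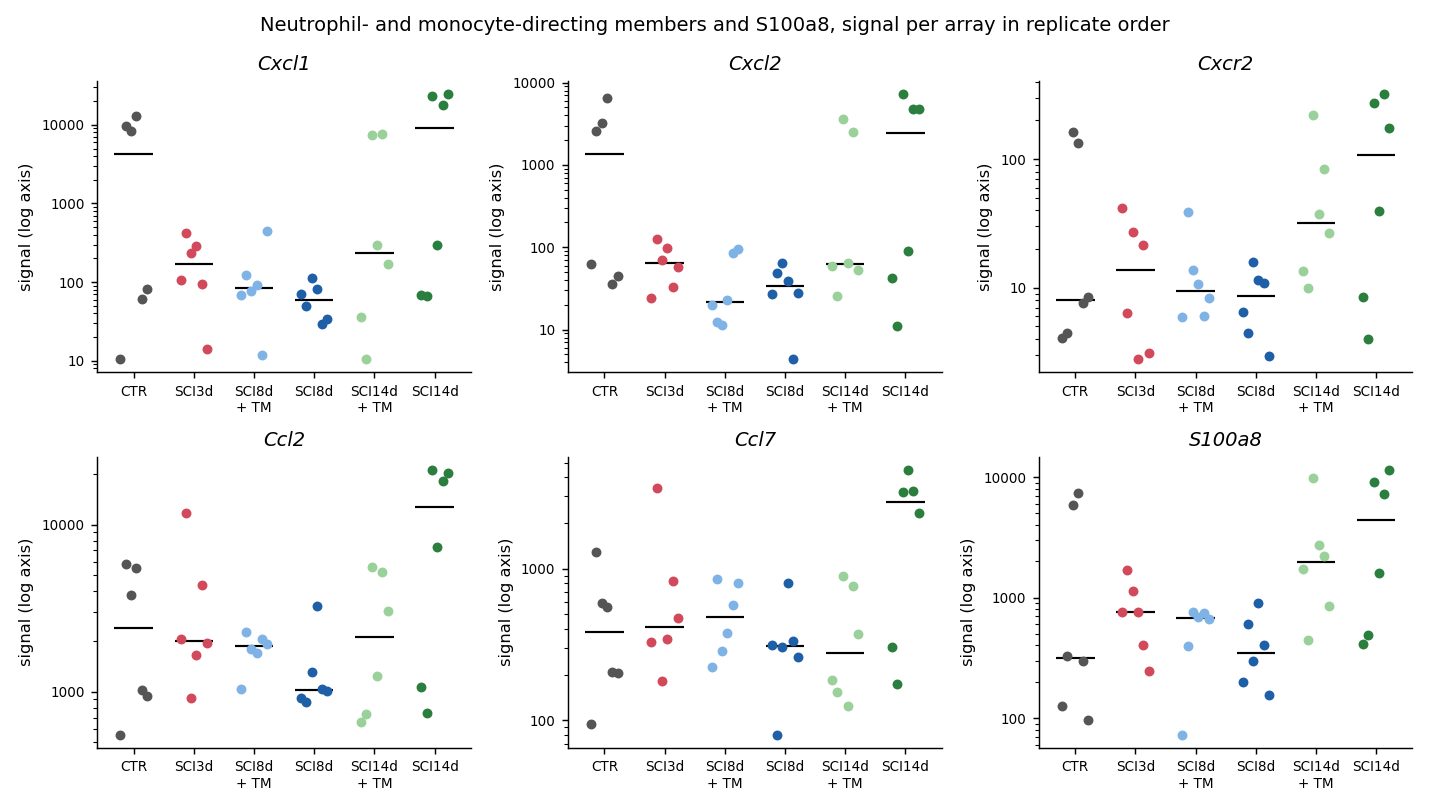
Signal per array (points, log axes, arbitrary units, in replicate order within a group) and group median (bars) of Cxcl1, Cxcl2, Cxcr2, Ccl2, Ccl7 and the neutrophil gene S100a8. For Cxcl1 and Cxcl2 the 3 bright SCI14d arrays, 2 bright SCI14d + TM arrays and 3 bright CTR arrays are separated from all other arrays by a wide gap.

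Ccl2 and Ccl7, which attract monocytes, were highest in SCI14d. Ccl2 had a lowest signal of 741, a median of 12729 and a highest of 21246 in SCI14d, against 554, 2403 and 5778 in CTR. SCI14d replicates 3, 4, 5 and 6 lay above every control at 7320 or more, and replicates 1 and 2 lay below the CTR median. The log2 fold change was 1.58 (SE 0.73, adjusted p = 0.243). Ccl7 had 174, 2771 and 4483 in SCI14d, against 95.3, 383 and 1282 in CTR, a difference of 1.95 (SE 0.73, adjusted p = 0.136). Without SCI14d replicate 2 the Ccl7 value was 2.54 (adjusted p = 0.0286), and leaving out any other array did not give a call. In controls bright in Cxcl1, replicates 2, 3 and 4, Ccl2 was 5778, 3779 and 5469, against 554 to 1027 in the others. Ccl7 was 1282, 591 and 559 on those 3 controls, against 95.3 to 208. SCI14d replicate 4, dim in Cxcl1, had the highest Ccl7 signal, 4483. On day 3 the highest Ccl2 and Ccl7 signals, 11710 and 3430, were those of SCI3d replicate 2, also dim in Cxcl1. The part of the bright arrays in the Ccl2 and Ccl7 values was not tested.

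The other members were not called against CTR on any day. The bright rodent macrophage chemokine Ccl6 had medians of 2280, 2625 and 3498 in SCI3d, SCI8d and SCI14d, against 2611 in CTR, and the groups overlapped throughout. Among the 4 atypical receptors, Ackr1, a chemokine-binding protein of venules and red cells, ran from 312 to 1838 over all arrays, and Ackr2, a scavenger of inflammatory CC chemokines, from 90.4 to 530. The interferon-induced ligands Cxcl9, Cxcl10 and Cxcl11, the ligands of Cxcr3, were brightest in SCI14d replicate 4 at 1459, 1364 and 658. That array also had the highest Cxcl14, Ccl21, Cxcl13, Ccl20 and Ackr1 signals of all 36. It was among the 3 of high GAPDH ratio. Its slow fibre sum, 216260, and its Gapdh signal, 34213, were the lowest of all 36. Its endothelial and antigen-presenting cell marker sums, 20689 and 40417, were the highest. The part of cell content in its values was not tested.

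Between SCI14d and SCI3d, 5 members were called, and all 5 were higher in SCI14d, in a comparison where 12.9% of all probe sets were called. These were Cxcl14, Ccl21 and Ackr4, described above, with Cxcl10 and Ccl4. Cxcl10 had lowest, median and highest signals of 45.4, 508 and 1364 in SCI14d and 40.9, 104 and 131 in SCI3d, a log2 difference of 2.03 (SE 0.60, adjusted p = 0.0206). SCI14d replicate 2 lay lowest and the other 5 SCI14d arrays lay above all SCI3d arrays. Ccl4, a ligand that attracts monocytes and T cells, lay near background with 115 to 250 in SCI14d and 10.3 to 101 in SCI3d, without overlap, and a log2 difference of 1.36 (SE 0.42, adjusted p = 0.0266). Between SCI8d and SCI3d 0 of 45 members were called, where 6.79% of all probe sets were.

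Treadmill training changed no member by the adjusted test. In SCI8d + TM against SCI8d, 0 of 45 members and 0.0% of all probe sets were called by limma, and in SCI14d + TM against SCI14d 0 members and 0.00322% of all probe sets, which is 1 of them. At an unadjusted p under 0.05 there were 1 and 5 members, beside 1343 and 1849 of all 31042 probe sets. The methods' t-test after adjustment called 0 members on both days. On day 8, 30 of 45 means were higher in the trained group, with a median of 0.21 on the log2 scale, beside 0.03 over all probe sets, and on day 14 35 of 45 were lower, with a median of -0.33, beside -0.03 over all probe sets. The SCI14d arrays serve both in this comparison and in that with CTR, so the opposite signs of the medians share those arrays.

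On day 14 the member with the smallest unadjusted p was Ccl7. It had lowest, median and highest signals of 125, 277 and 901 in SCI14d + TM, against 174, 2771 and 4483 in SCI14d, a log2 difference of -2.11 (SE 0.73, p = 0.00685, adjusted p = 0.696, exact permutation p = 0.0584). Ccl2 had 659, 2134 and 5584 in SCI14d + TM, against 741, 12729 and 21246 in SCI14d, a difference of -1.62 (SE 0.73, adjusted p = 0.802). Of the trained arrays all 6 lay below the SCI14d median for both genes, while the groups overlapped. Replicates 3 and 5, bright in Cxcl1, were the highest trained arrays for both. They had 5584 and 5204 for Ccl2 and 901 and 774 for Ccl7, against at most 3027 and 369 on the others. The part of the bright arrays in these differences was not tested. Cxcl11, Cxcl14 and Ccl17, an attractant of helper T cells, gave -1.44, -0.79 and -1.10, with adjusted p of 0.78 to 0.822. The highest SCI14d values of Cxcl11 and Cxcl14, 658 and 17532, were both from replicate 4.

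Cxcl12 lay above the SCI14d median on all 6 SCI14d + TM arrays. Its signal ran from 3259 to 4129 in SCI14d + TM and from 1978 to 3922 in SCI14d, a log2 difference of 0.45 (SE 0.22, adjusted p = 0.843, exact permutation p = 0.0498). Against CTR, the SCI14d + TM arrays did not overlap the controls, at -0.44 (SE 0.22, adjusted p = 0.438, exact permutation p = 0.00216), in a comparison with 0 members called and 0.358% of all probe sets. The other 2 Cxcl12 probe sets lay the other way, with medians of 3459 and 973 in SCI14d + TM, against 2649 and 815 in CTR, and their groups overlapped. The difference between the training effects, day 14 less day 8, was called for 0 members and 0.0% of all probe sets. For Cxcl12 it was 0.59 (SE 0.32, adjusted p = 0.918).

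On day 8 the 5 members of smallest unadjusted p were Ccl4, Ccr2, Cx3cr1, Ccl22 and Cxcr5, all higher on average in SCI8d + TM. Ccl4 had 89.2 to 198 in SCI8d + TM and 21.6 to 147 in SCI8d, a log2 difference of 0.86 (SE 0.42, exact permutation p = 0.0498). Ccr2, the receptor of Ccl2 and Ccl7, ran from 193 to 403 in SCI8d + TM, against 49.9 to 261 in SCI8d, with 0.87 (SE 0.48, exact permutation p = 0.0303). Ccl22, an attractant of helper and regulatory T cells, and Cx3cr1, the fractalkine receptor of monocytes, were near background, with 1.10 and 0.95. The Ccl22 signal was 2.86 and 6.87 in SCI8d replicates 3 and 4, and a second Ccl22 probe set gave 0.26. The adjusted p of all 5 members was 0.9998.

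Cxcr5 ran from 392 to 635 in SCI8d + TM and from 321 to 464 in SCI8d, with 0.37 (SE 0.25, exact permutation p = 0.0281), all 6 trained arrays lying above the SCI8d median. Against CTR the trained group did not overlap and Cxcr5 was called, at 1.19 (SE 0.25, adjusted p = 0.00207), as was Cxcl12 at -1.01 (SE 0.22, adjusted p = 0.00289, exact permutation p = 0.0108). These were 2 of 45 members, where 12.2% of all probe sets were called. SCI8d + TM replicate 5, with a Cxcl12 signal of 5540, overlapped the controls. The other 2 Cxcl12 probe sets had medians of 2578 and 775 in SCI8d + TM, against 2649 and 815 in CTR, with overlapping groups.

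**Figure D5:**
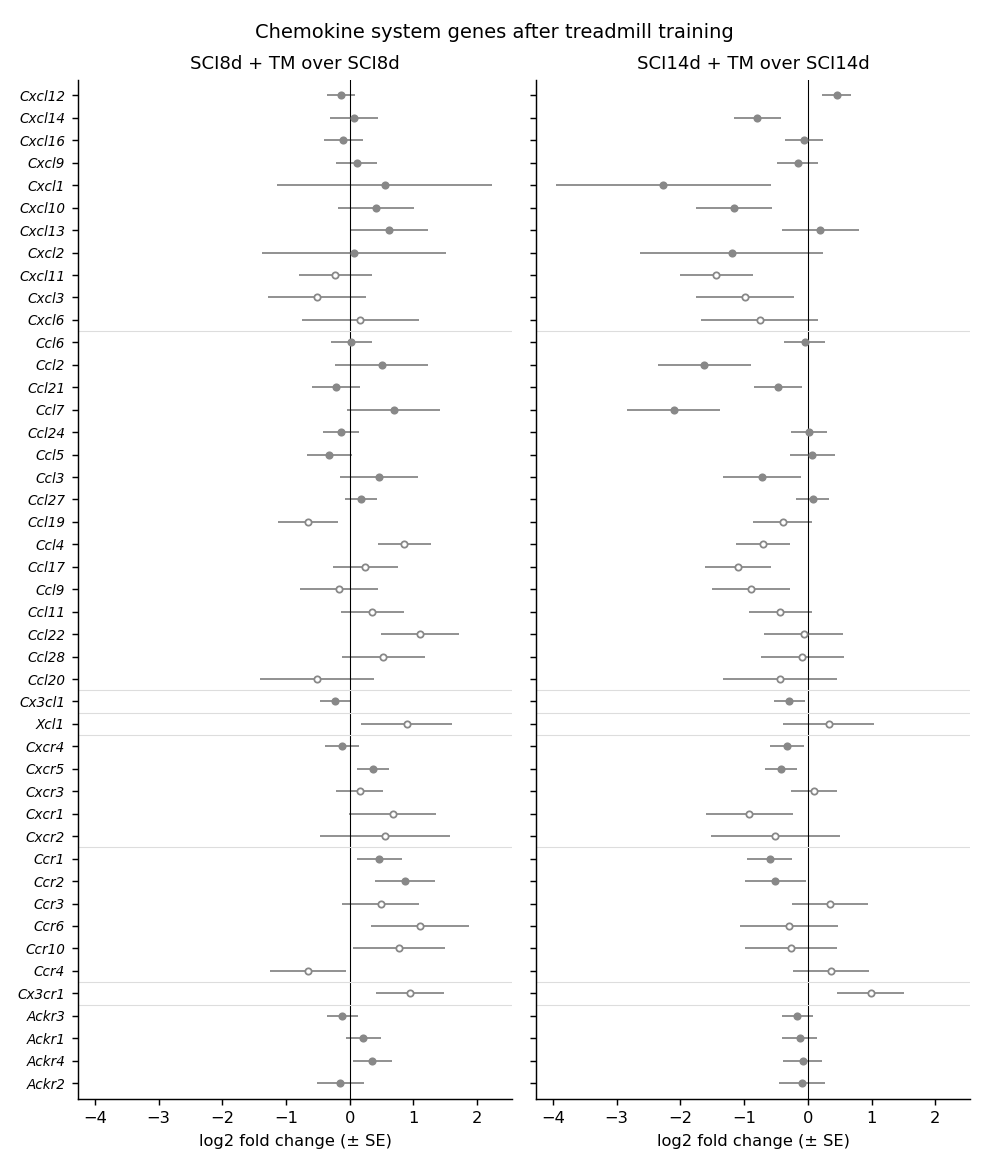
Log2 fold change of the trained over the untrained group (points, with SE as bars) of the 45 members on day 8 and day 14, grouped by family, with open points near background. No member passed an adjusted p of 0.05, and the lowest point of day 14 among those above background, beside Cxcl1, is Ccl7 at -2.11.

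Genes that act with chemokines were followed by list. Over all probe sets, 16.5%, 6.29% and 3.19% were called on days 3, 8 and 14. Of 17 measured signalling partners of chemokine receptors, 1 was called, Rgs2, an inhibitor of G protein signalling, which fell by 1.34 (SE 0.30, adjusted p = 0.00146) on the log2 scale on day 3. Of 9 measured leukocyte adhesion genes, the integrin Itgb1 rose by 0.70 (adjusted p = 0.0348) on day 8 and the selectin Selp by 1.60 (adjusted p = 0.0216) on day 14. Among 11 chemokine-processing proteases and glycan carriers, Dpp4, a peptidase that trims and inactivates Cxcl12, fell by 1.10 (adjusted p = 0.0167) on day 3, and Mmp2, Mmp14 and Ctsk, proteases that also cut collagen, rose on day 14 by 1.14 (adjusted p = 0.0244), 1.52 (adjusted p = 0.00338) and 1.15 (adjusted p = 0.03). Mmp14 rose on day 8 as well, by 1.09 (adjusted p = 0.021).

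Of 7 related genes outside the symbol rule, Mif, a cytokine that also binds Cxcr4, fell by 0.47 (adjusted p = 0.00312), 0.61 (adjusted p = 0.00116) and 0.50 (adjusted p = 0.0122) on the log2 scale on days 3, 8 and 14. Ccrl2, a non-signalling receptor, fell by 0.91 (adjusted p = 0.0287) on day 8. In both training comparisons 0 genes of these lists were called.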

How the data were processed

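The 36 arrays (Affymetrix Rat Genome 230 2.0) were read by the authors with MAS5, which gave intensity values as linear signals, and each array was scaled by them to an equal trimmed mean (800.0 here without the outer 2%). The labels give 5 µg of RNA per labelling and the study's methods a smaller amount. The authors describe a filter on present calls, and the deposited table holds 31099 probe sets. The 57 manufacturer controls were left out, and 31042 probe sets were tested.

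Log2 signals without an offset were fitted with limma 3.58.1 (R 4.3.3) as 6 group means with an intensity trend, and p was adjusted by Benjamini and Hochberg over all probe sets. A single member was also compared by the exact two-sided permutation test over 924 arrangements. Members, gene lists and the rule for named genes were chosen with earlier results of these data known. The rule named members called in any of the 5 main comparisons, those above the 75th percentile, the 5 smallest p of each training comparison, and up to 4 genes of a list. The fit was tested on simulated data.

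Alternatives were quantile normalization, median centring, scaling to Gapdh, an offset of 32, leaving out the dimmest 40% of probe sets, no trend, 2 groups only, a replicate block, the methods' t-test, other probe sets or their mean, and each array left out. Leaving out the 3 arrays of high GAPDH ratio was added after seeing the data. Figures were drawn with matplotlib 3.10.9. The number of arrays limits the precision.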

Additional observations from a re-analysis of the deposited data

Results flagged for a closer look

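For 18 named members in 6 groups, the highest or lowest of the 6 log2 signals was set against the nearest other array as a share of the group's range, by Dixon's criterion. Chance flags about 1 in 20 groups, and 10 of the 108 groups were flagged. At the high end were Ccl21 in SCI14d replicate 4 (7599, nearest other array 1821), Ccl2 in SCI8d replicate 4 (3248, nearest 1320), Cxcl12 in SCI8d replicate 3 (3991, nearest 2774) and Ackr4 in SCI14d + TM replicate 6 (607, nearest 364). At the low end were Ackr3 in SCI14d + TM replicate 3 (2918, nearest 4332), Ccl2 in SCI8d + TM replicate 1 (1034, nearest 1707) and Ccr2 in CTR replicate 2 (43.6, nearest 108). The other 3 were low values at or under background, Ccl22 in SCI8d + TM replicate 1 (10.9), Ccl4 in SCI3d replicate 1 (10.3) and Cxcl2 in SCI8d replicate 5 (4.42). The bright and dim ranges of Cxcl1 were not flagged, since each range held several arrays. The part of RNA quality in the Ccl21 value was not tested, and its array had a GAPDH ratio of 1.35.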

How the results depend on the processing

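The calls on day 3 were the steadiest. Leaving out single arrays gave 2 to 4 members called on day 3, against 4 with all arrays, and 2 remained without SCI3d replicate 2 (Ackr3 and Cxcl14). On day 8 the count of 2 became 1, Cxcl12, under quantile normalization, median centring, scaling to Gapdh, no intensity trend, 2 groups only and the methods' t-test, became 0 with probe sets of a gene averaged, and was 1 to 3 with single arrays left out. On day 14 the count of 3 became 1 under quantile normalization, median centring, no intensity trend and 2 groups only (Cxcl12 in each) and with probe sets averaged (Ackr4), became 0 under the methods' t-test, and was 0 to 4 with single arrays left out. It was 0 without CTR replicate 1 and without SCI14d replicate 3, 5 or 6. Both training counts stayed at 0 under every alternative run. Other probe sets turned the sign of Cxcl12 on day 14 (0.0669), of Cxcl14 on day 3 (0.14) and of Cxcr5 on days 8 (-0.0134) and 14 (-0.44). Cxcl2 on day 14 was -0.0696 with median centring and ranged from -0.75 to 1.12 with single arrays left out. Without the 3 arrays of high GAPDH ratio the counts were 4, 3 and 4, with Cxcr4 added on days 8 and 14. The shift of all probe sets moved by -0.13 with median centring and by 0.24 with scaling to Gapdh on day 14, where 20.3% and 88.1% of all called probe sets were higher, against 47.7% as reported (37.7% under quantile normalization), and by 0.10 with median centring on day 3, where 58.7% were higher against 43.9%. On day 8 median centring gave 36.3% against 47.8%. With the replicate number as a block the counts were 5, 2 and 3, Ccl27 being added on day 3. Same-numbered arrays had residual correlations from -0.10 to 0.16, and 9 of 30 correlated best with their own number among 6 arrays. These values do not settle whether the numbers pair the animals, and the main fit used no pairing.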
